A study of Homo sapiens with 6 samples.

Results

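The genes described here were the subunits of the hypoxia-inducible factors (HIFs) and the enzymes that sense oxygen for them: HIF1A, EPAS1, HIF3A, ARNT, ARNT2, EGLN1, EGLN2, EGLN3, HIF1AN and VHL. Rows were taken by gene symbol with no threshold on a measured value, although the set was drawn up with earlier results of these data known, and all 10 were among the 60748 rows of the deposited gene table. RNA was sequenced in 6 libraries of the human line LX-2, an established model of hepatic stellate cells. LX-2FAP cells were infected with a lentivirus that carried a fibroblast activation protein α (FAP) overexpression plasmid, and LX-2Vector cells with the matching empty vector. Both vectors were driven by a ubiquitin promoter and also encoded EGFP and puromycin resistance, and stable clones were selected with puromycin. How many clones make up each line is not given in the sources used here, so an effect of FAP and a difference between clones cannot be told apart. The labels gave 3 libraries for each line, and all cells were cultured for 24 h before collection in medium with fetal bovine serum. The labels named no low-oxygen treatment for any library, and they did not say whether the 3 libraries of a line came from separate cultures.

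HIFs are transcription factors made of an α subunit and a β subunit. HIF1A and EPAS1 (HIF-2α) are the main α subunits, HIF3A is a further α subunit with several isoforms, and ARNT (HIF-1β) and ARNT2 are the β partners that an α subunit needs to bind DNA. When oxygen is present, the prolyl hydroxylases EGLN1 (PHD2), EGLN2 (PHD1) and EGLN3 (PHD3) mark the α subunits, VHL recognizes the mark as part of a ubiquitin ligase, and the α subunits are degraded. HIF1AN (factor inhibiting HIF) hydroxylates an asparagine of the α subunits and so blocks their contact with coactivators. EGLN1 and EGLN3 are known as HIF target genes themselves. Most of this control acts on protein, whereas the values here were transcript levels.

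The promoter windows of the 1 member that passed the test, HIF1A, and of EGLN1 and EGLN3, the sensors known as HIF targets, are shown so that the levels given later can be read beside them. Each runs from 250 bases before to 50 bases after the annotated start in RefSeq (GRCh38.p14), written 5′ to 3′ on the strand of the gene. Capitals mark ACGTG or GCGTG, the core of the hypoxia response element, searched on both strands. The windows lie at chr14:61695263-61695562 (plus strand) for HIF1A, chr1:231422238-231422537 (minus strand) for EGLN1 and chr14:33951025-33951324 (minus strand) for EGLN3.
HIF1A: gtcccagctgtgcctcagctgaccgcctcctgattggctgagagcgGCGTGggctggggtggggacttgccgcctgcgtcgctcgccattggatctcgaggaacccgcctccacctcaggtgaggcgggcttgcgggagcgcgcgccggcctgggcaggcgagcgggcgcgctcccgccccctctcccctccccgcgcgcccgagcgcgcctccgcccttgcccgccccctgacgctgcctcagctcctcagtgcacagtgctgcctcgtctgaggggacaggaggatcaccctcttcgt
EGLN1: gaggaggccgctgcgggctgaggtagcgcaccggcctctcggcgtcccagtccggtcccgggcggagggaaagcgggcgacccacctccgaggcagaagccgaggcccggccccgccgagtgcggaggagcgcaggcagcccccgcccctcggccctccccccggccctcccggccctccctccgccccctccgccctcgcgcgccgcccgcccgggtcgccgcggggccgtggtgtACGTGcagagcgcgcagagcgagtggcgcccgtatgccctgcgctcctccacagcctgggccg
EGLN3: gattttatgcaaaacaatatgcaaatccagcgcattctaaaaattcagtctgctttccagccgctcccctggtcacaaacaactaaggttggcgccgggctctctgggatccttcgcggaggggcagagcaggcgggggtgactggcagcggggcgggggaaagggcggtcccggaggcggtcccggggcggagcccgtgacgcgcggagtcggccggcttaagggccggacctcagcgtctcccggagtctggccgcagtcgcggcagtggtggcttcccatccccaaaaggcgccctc

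The HIF1A window shown held GCGTG once, 204 bases before the start. A further HIF1A start in RefSeq, with its window at chr14:61697462-61697761, had neither core. In EGLN1, ACGTG was found 13 bases before the start, and the EGLN3 window held neither. RefSeq windows were matched for 8 of the 10 genes, 12 windows in all, and those of VHL and ARNT2 were not used here. Of the 12 windows, 5 held at least 1 core, and 48.4% of all 35116 promoter windows of the same length did. ACGTG was present in 2 of the 12, in EGLN1 and in EGLN2, where the palindrome CACGTG gave overlapping matches on both strands 49 and 48 bases before the start. The share over all promoters was 21.4%. These matches describe the letters in the windows, and no binding was measured.

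The libraries held 17355700 to 26352060 counts. FAP, on chromosome 2, was counted 49, 42 and 55 times in the LX-2Vector libraries and 14864, 15160 and 14805 times in the LX-2FAP libraries, so every library matched its label. On the first principal component of log2 CPM, which took 36.2% of the variance, LX-2FAP replicate 1 lay nearest to the LX-2Vector libraries. Of 14 stellate cell markers, VIM and COL1A1 were abundant, LRAT was listed at 0 and DES at 0 or 1 count in all 6 libraries, and COL1A2 averaged 1.17 and 1.05 CPM. ACTA2, HAND2, LUM and DCN were also low, at means of 3.82, 1.59, 1.05 and 1.38 CPM in LX-2Vector. COL3A1, PDGFRB, NGFR and TAGLN lay between, at 41.7, 24.8, 31.5 and 13.7 CPM in LX-2Vector. Markers of other liver cells were low, but several, such as PTPRC and PECAM1 at 5.39 and 4.25 CPM in LX-2Vector, exceeded ACTA2. The summed level of 8 hepatocyte markers was 14.3 to 16.1 CPM in LX-2Vector and 11.6 to 12.9 CPM in LX-2FAP, nearly all of it SERPINA1, with TTR at 0 and ALB at 1 to 3 counts. Sums of 8 endothelial markers were 11.9 to 13.5 CPM and 8.67 to 11.5 CPM, those of 7 leukocyte markers 11.7 to 15.4 CPM and 13.2 to 17.1 CPM, and those of 5 epithelial markers 4.56 to 8.72 CPM and 3.68 to 5.73 CPM, in LX-2Vector and LX-2FAP. The part of other cells in the results that follow was not tested. In these bulk libraries, fewer cells with a transcript and less of it per cell cannot be told apart.

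Among these genes, HIF1A was by far the most abundant transcript and HIF3A was nearly undetected. Levels between genes are given as FPKM, the deposited counts scaled for gene length and for library depth. Averaged over the 6 libraries, HIF1A stood at 179 FPKM, EPAS1 at 21.3 FPKM, VHL at 10.9 FPKM, HIF1AN at 9.87 FPKM, ARNT at 9.22 FPKM, ARNT2 at 2.65 FPKM, EGLN1 at 1.77 FPKM, EGLN2 at 1.34 FPKM and EGLN3 at 0.0362 FPKM. In this order, HIF1AN and ARNT were the only neighbours whose ranges over the 6 libraries overlapped (9.56 to 10.2 FPKM and 8.79 to 9.60 FPKM). The lowest value of every other gene down to EGLN3 lay above the highest value of the next one. For VHL that margin was narrow, with a lowest value of 10.4 FPKM. The FPKM values imply a length of 4890 bases for VHL and 5381 bases for EGLN1, against 4213 and 7265 exon bases in GENCODE release 29, so the places of these genes depend on the annotation.

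**Figure D1:**
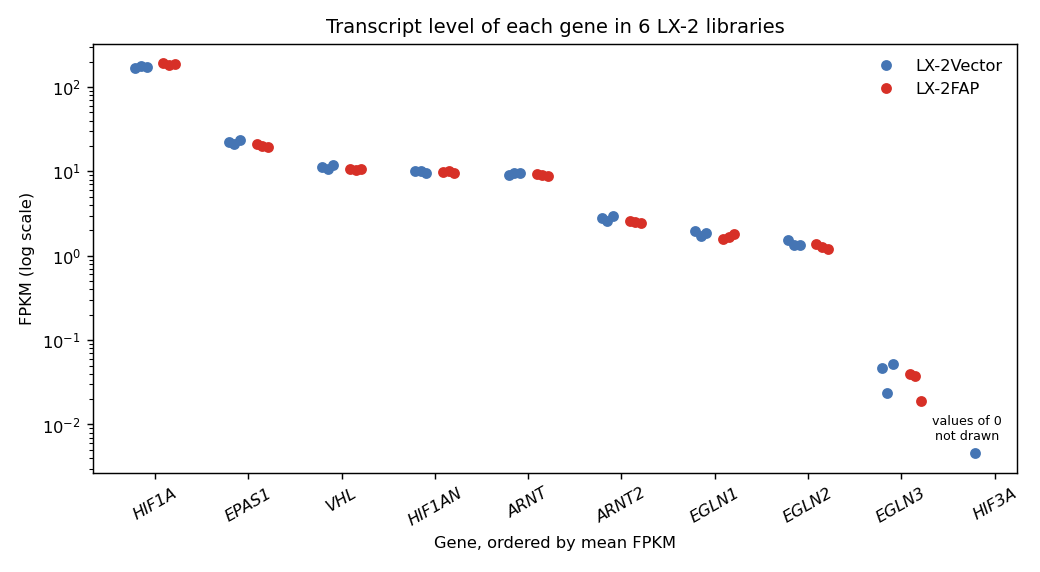
FPKM (log scale) of each gene in the 3 LX-2Vector libraries (blue) and the 3 LX-2FAP libraries (red), ordered by the mean over all 6. HIF1A lies at 167 to 190 FPKM, well above EPAS1 at 19.6 to 23.3 FPKM, EGLN3 lies below 0.06 FPKM in every library, and HIF3A has a value above 0 in 1 library only.

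The α subunits differed widely in level. HIF1A (chromosome 14, 61695513 to 61748259, plus strand, GRCh38), the α subunit found in most cell types, took 88.2%, 89.3% and 88.1% of the summed FPKM of the 3 α subunits in the LX-2Vector libraries. Its share in the LX-2FAP libraries was 90.0%, 90.0% and 90.5%. The shares did not overlap between the groups, with means of 88.5% ± 0.68 and 90.2% ± 0.29 (SD, n = 3 each). The exact 2-sided permutation test gave p = 0.1, the smallest it allows with 3 against 3, and an adjusted p of 0.5 over the 5 shares tested. The ratio of HIF1A to EPAS1 FPKM was 7.46, 8.36 and 7.40 in LX-2Vector and 9.01, 8.98 and 9.53 in LX-2FAP.

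HIF1A was the only member that passed the test between the lines. Its normalized level in CPM (counts scaled for library size, with TMM factors) was 860.3, 896.3 and 879.6 in the LX-2Vector libraries and 989.6, 951.8 and 972.7 in the LX-2FAP libraries. All 3 LX-2FAP values lay above all 3 LX-2Vector values, and within each group the values spanned a few percent. The mean was 10.5% higher in LX-2FAP (878.7 ± 18.0 against 971.3 ± 18.9 CPM, mean ± SD, n = 3 each), a log2 fold change of 0.14 (SE 0.04, 95% interval 0.07 to 0.22, edgeR quasi-likelihood adjusted p = 0.0312). Over all 18275 tested genes 5.29% were called at an adjusted p under 0.05 and 2.57% were called higher in LX-2FAP. Of the 8 members tested 12.5% were called, a share that rests on 1 gene. The call did not hold in every fit with a library left out. It was lost when the control replicate 1 (adjusted p = 0.0644, edgeR) or 3 (0.0721), or the FAP replicate 2 (0.0812) or 3 (0.167), was left out. The number of all genes called was 391, 395, 129 and 26 in these fits, in the same order, against 967 with all libraries. With any 1 library left out, the log2 fold change of HIF1A stayed between 0.13 and 0.17. Its unadjusted p was then 0.00138 to 0.00572 (edgeR).

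The difference in HIF1A was smaller once a trend over base composition was removed, and the cause of the trend was not tested. The tested genes were split into 5 equal bins by the GC content of their longest transcript, and from the lowest to the highest bin the median log2 fold change was 0.07, 0.03, -0.01, -0.05 and -0.12. HIF1A, with 36.4% GC, belonged to the lowest bin (23.1% to 40.8%). With the GC trend removed from the counts of each library, a step added after the data were seen, its log2 fold change was 0.09 (adjusted p = 0.13, edgeR) and it was no longer called. Over all genes with a known GC content, 4.48% were called with this step. EPAS1, ARNT2 and EGLN2, with 52.6%, 52.1% and 55.8% GC, were in bin 4 of 5, and their log2 fold changes were smaller in size with the trend removed (-0.04, -0.05 and -0.02).

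**Figure D2:**
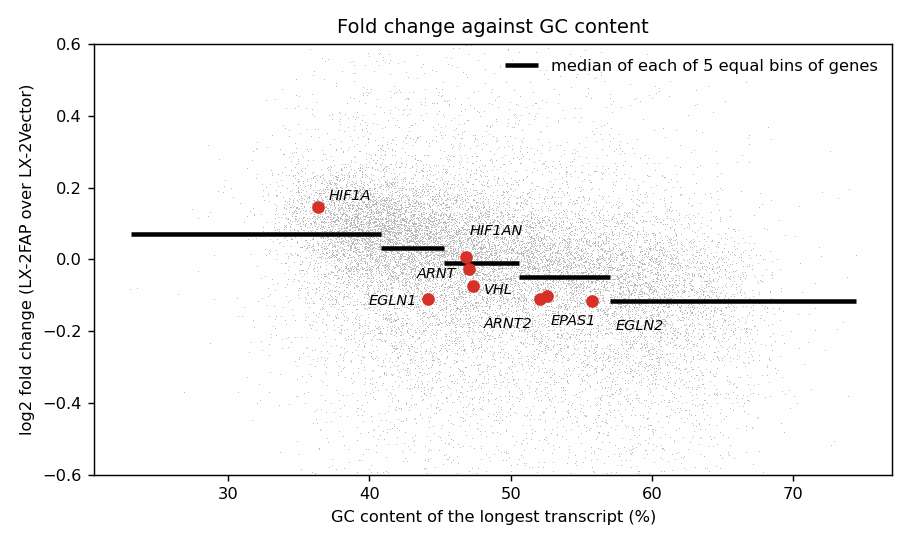
The log2 fold change of LX-2FAP over LX-2Vector against the GC content of the longest transcript, for tested genes between -0.6 and 0.6 (grey points) and for the 8 tested HIF subunits and sensors (red), with the median of each of 5 equal bins of genes as a black line. The medians step down from 0.07 to -0.12 with rising GC, and HIF1A lies at 36.4% GC above the median of the lowest bin.

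EPAS1 (chromosome 2, 46293667 to 46386703), the α subunit known from endothelial cells and from the control of erythropoietin, did not pass the test. Its level was 163.1, 151.7 and 168.2 CPM in LX-2Vector and 155.4, 149.9 and 144.5 CPM in LX-2FAP. LX-2FAP replicate 1 lay above LX-2Vector replicate 2, so the groups overlapped. EPAS1 had a log2 fold change of -0.10 (SE 0.05, unadjusted p = 0.0431, edgeR adjusted p = 0.209), with a 95% interval of -0.20 to -0.004. An unadjusted p under 0.05 was reached by HIF1A and EPAS1, 2 of the 8 tested members, and by 22.2% of all tested genes.

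HIF3A (chromosome 19, 46297046 to 46343433) was represented by 1 count, in LX-2Vector replicate 1. The other 5 libraries listed it at 0, which at 3 counts per library allows up to 0.124 to 0.173 CPM, for counting error only. It did not pass the filter on low counts, and with no filter it was not called (adjusted p = 0.717, edgeR).

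The β subunits did not differ detectably. ARNT (chromosome 1, 150809705 to 150876768), the common dimerization partner, was measured at 58.6, 60.6 and 61.3 CPM in LX-2Vector and 60.8, 58.7 and 57.4 CPM in LX-2FAP. The groups overlapped almost fully, and the log2 fold change of -0.03 had a 95% interval of -0.13 to 0.08 (adjusted p = 0.80, edgeR). With the GC trend removed its sign changed, to 0.0004. ARNT2 (chromosome 15, 80404350 to 80597937), a paralogue best known from neurons, was measured at 21.6, 19.8 and 22.5 CPM in LX-2Vector and 20.2, 19.8 and 19.2 CPM in LX-2FAP. Its log2 fold change was -0.11 (95% interval -0.26 to 0.04, adjusted p = 0.39, edgeR), and LX-2Vector replicate 2 lay within the LX-2FAP range. ARNT made up 77.2% ± 1.19 of the summed FPKM of both β subunits in LX-2Vector and 78.2% ± 0.111 in LX-2FAP (mean ± SD, n = 3 each, exact permutation p = 0.4, adjusted p = 0.833). HIF1A exceeded ARNT in FPKM by 18.0 to 21.2 times over the 6 libraries.

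**Figure D3:**
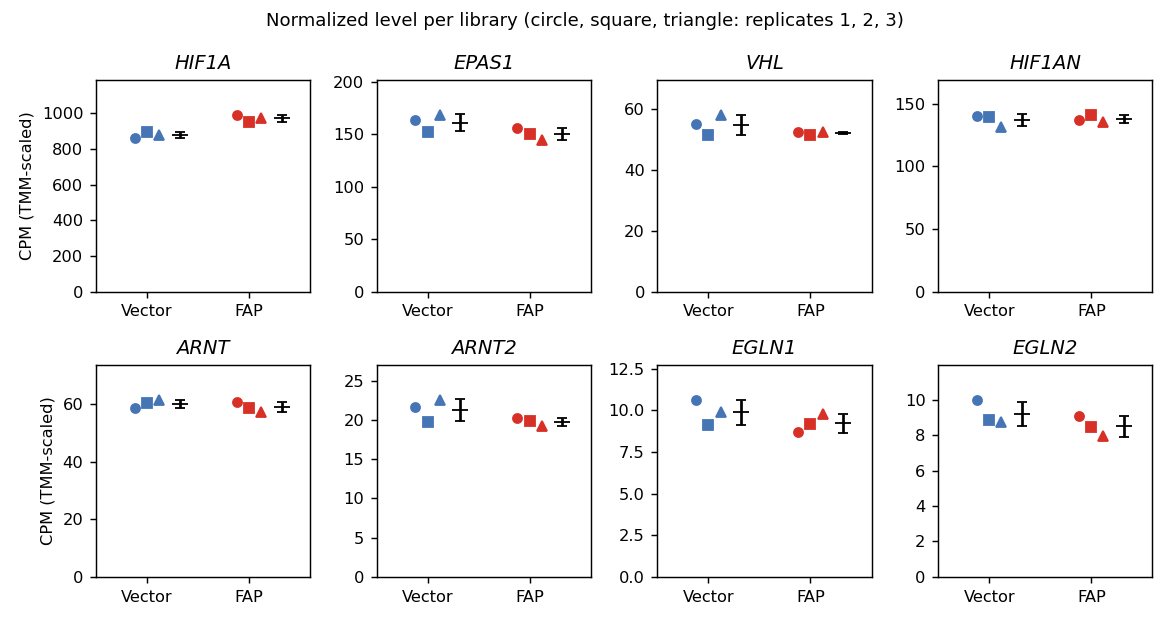
TMM-scaled CPM of the 8 tested genes in each library, with the mean and SD of each group (black), every axis starting at 0. The LX-2FAP values lie above all LX-2Vector values for HIF1A (951.8 to 989.6 against 860.3 to 896.3 CPM), and the groups overlap in the other 7 panels.

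The prolyl hydroxylases were low, and none of them passed the test. EGLN1 (chromosome 1, 231363751 to 231425044), regarded as the main oxygen sensor for HIF1A, was measured at 10.6, 9.12 and 9.92 CPM in LX-2Vector and 8.68, 9.17 and 9.79 CPM in LX-2FAP. These values rest on 160 to 280 counts per library and overlapped between the groups. Its log2 fold change was -0.11 (adjusted p = 0.546, edgeR), with a 95% interval of -0.31 to 0.09. EGLN2 (chromosome 19, 40798996 to 40808433), the hydroxylase known as an estrogen-induced gene, was measured at 9.95, 8.83 and 8.74 CPM in LX-2Vector and 9.09, 8.45 and 7.92 CPM in LX-2FAP. Its log2 fold change was -0.12 (95% interval -0.33 to 0.10, adjusted p = 0.54, edgeR), and LX-2FAP replicate 1 lay above LX-2Vector replicates 2 and 3. EGLN2 shares 30.6% of its exon bases with the read-through gene RAB4B-EGLN2, which was listed at 0 in all 6 libraries, so its level is uncertain by the reads that fell in those exons.

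EGLN3 (chromosome 14, 33924231 to 34462774), the hydroxylase known to respond most to low oxygen in many cell types, was counted 9, 3 and 8 times in LX-2Vector and 7, 5 and 3 times in LX-2FAP. It did not pass the filter on low counts, and with no filter it was not called (adjusted p = 0.792, edgeR). The 15 counts of LX-2FAP against 20 of LX-2Vector, each relative to the summed library totals, gave a ratio of 0.763 (exact 95% interval 0.364 to 1.57, for counting error only), so neither a rise nor a fall was detectable. The shares of the 3 hydroxylases in their summed FPKM did not differ detectably. EGLN1 took 56.1% ± 0.947 in LX-2Vector and 56.4% ± 3.32 in LX-2FAP (exact permutation p = 0.9, n = 3 each), EGLN2 took 42.7% ± 1.33 and 42.5% ± 2.98 (exact permutation p = 1.0, n = 3 each), and EGLN3 took 1.22% ± 0.421 and 1.06% ± 0.369 (exact permutation p = 0.5, n = 3 each). Their adjusted p-values were 0.833 to 1.0.

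HIF1AN and VHL, which act beside or after the prolyl hydroxylases, were more abundant than these per length. HIF1AN (chromosome 10, 100529072 to 100559998) was measured at 140.0, 139.5 and 131.6 CPM in LX-2Vector and 136.8, 141.0 and 135.3 CPM in LX-2FAP. HIF1AN had a log2 fold change of 0.01 with a 95% interval of -0.08 to 0.10 (adjusted p = 0.956, edgeR), and its sign changed with library-size or upper-quartile scaling. VHL (chromosome 3, 10141008 to 10152220) was measured at 55.1, 51.5 and 58.1 CPM in LX-2Vector and 52.4, 51.6 and 52.4 CPM in LX-2FAP. The LX-2FAP libraries lay close together within the wider LX-2Vector range, with a log2 fold change of -0.08 (95% interval -0.19 to 0.04, adjusted p = 0.446, edgeR). Per length, HIF1AN exceeded EGLN1 by 5.12 to 6.11 times and VHL exceeded EGLN1 by 5.72 to 6.64 times in FPKM over the 6 libraries.

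Taking the 8 tested members by count, 6 had a log2 fold change below 0, against 53% of all tested genes, and their median log2 fold change was -0.09 against -0.01. With the GC trend removed, 5 of the 8 were below 0 and the median was -0.03, against 0.03 over all genes in that fit. For 1 of the 8 the groups did not overlap, against 26.4% of all tested genes. EGLN3 and HIF3A are outside these counts because they did not pass the filter.

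**Figure D4:**
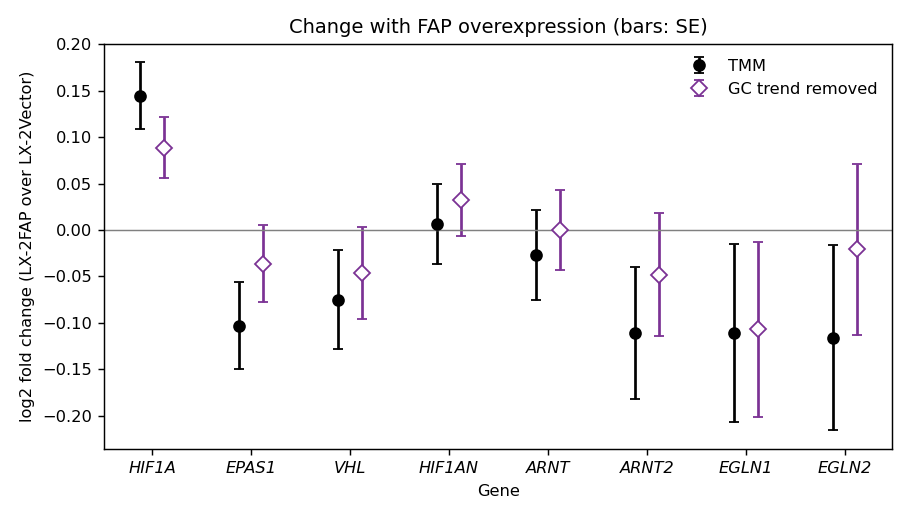
The log2 fold change of LX-2FAP over LX-2Vector for the 8 tested genes, with TMM scaling (black) and with the GC trend removed (open diamonds); bars are standard errors. HIF1A stands at 0.14 and 0.09, and the other 7 lie between -0.12 and 0.03 under both.

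The genes whose pattern over the 6 libraries was most like that of HIF1A were RESF1, EIF5B and LRRC8C, by the root-mean-square difference of centred log2 CPM among the 11555 tested genes that averaged 100 counts or more. RESF1, a silencer of endogenous retroviruses, differed by 0.0125 and had a log2 fold change of 0.14 (adjusted p = 0.0741, edgeR). EIF5B, a translation initiation factor that joins ribosomal subunits, differed by 0.0126, with a log2 fold change of 0.15 (adjusted p = 0.0347, edgeR). LRRC8C, a subunit of volume-regulated anion channels, differed by 0.0146, with a log2 fold change of 0.12 (adjusted p = 0.0976, edgeR). Their GC contents, 37.8%, 38.6% and 38.1%, lay in the lowest bin together with that of HIF1A.

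Of the 10 partners of VHL in the ubiquitin ligase, 1 was called, against 5.29% of all tested genes. All 10 were tested and had a log2 fold change above 0, against 47% of all tested genes, with a median of 0.12 against -0.01. With library size alone, 8 of the 10 were above 0. UBE2D3, an E2 ubiquitin-conjugating enzyme, rose from 291.9, 298.3 and 281.7 CPM in LX-2Vector to 309.4, 337.2 and 329.1 CPM with FAP (log2 fold change 0.16, SE 0.04, adjusted p = 0.0392, edgeR). The groups did not overlap. UBE2D3 was called in 1 of the 6 fits that each left out a library (without the FAP replicate 1). With the GC trend removed its log2 fold change was 0.12 (adjusted p = 0.113, edgeR), and ELOC, which encodes elongin C, was the 1 partner called there. For comparison, VHL itself had a log2 fold change of -0.08.

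Of 13 other genes known to act on the stability of the α subunits or of the hydroxylases, 1 was called (7.69%), against 5.29% of all tested genes. HSP90AA1, the inducible cytosolic HSP90 chaperone that binds HIF-1α, was measured at 1723, 1789 and 1655 CPM in LX-2Vector and 1916, 2194 and 2081 CPM in LX-2FAP. Every LX-2FAP library was higher, with a log2 fold change of 0.26 (SE 0.05, adjusted p = 0.00815, edgeR) that stood at 0.28 with the GC trend removed (adjusted p = 0.00687, edgeR). The call was lost without the FAP replicate 3 (adjusted p = 0.0748, edgeR). The median log2 fold change of the list was -0.01.

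As a background for the next lists, 5.29% of all tested genes were called and 22.2% had an unadjusted p under 0.05 (edgeR). None of the 10 tested HIF coactivators and CITED competitors was called by edgeR, and 1 had an unadjusted p under 0.05. That gene was CDK8, a Mediator kinase that HIF-1α uses in elongation, with a log2 fold change of 0.12 (adjusted p = 0.189, edgeR). NCOA2, a p160 coactivator, came next at -0.09 (adjusted p = 0.294, edgeR). Among 12 tested bHLH-PAS factors outside the HIF family, 1 was called (8.33%). PER3, a component of the circadian clock, fell from 55.3, 55.9 and 64.0 CPM in LX-2Vector to 51.1, 42.0 and 45.1 CPM with FAP (log2 fold change -0.34, SE 0.07, adjusted p = 0.0177, edgeR). The call of PER3 was lost when the control replicate 3 or the FAP replicate 2 or 3 was left out (highest adjusted p = 0.117, edgeR). Genes on the opposite strand overlap 16.7% of the exon bases of PER3. Of 17 other dioxygenases that use oxygen and 2-oxoglutarate or thiols, 1 was called (5.88%), near the share of all tested genes. KDM4B, a histone demethylase known as a HIF target, fell from 35.3, 31.7 and 35.0 CPM to 30.5, 27.7 and 28.7 CPM (log2 fold change -0.23, SE 0.06, adjusted p = 0.0492, edgeR), and its log2 fold change was -0.09 with the GC trend removed (adjusted p = 0.348, edgeR). KDM4B was called in 2 of the 6 fits with a library left out, those without the control replicate 2 or the FAP replicate 1. None of 15 tested genes that feed into HIF1A transcription and translation was called by edgeR. Against 22.2% of all tested genes, 3 of these 15 had an unadjusted p under 0.05. The smallest p-values were those of EIF4E, the cap-binding factor (log2 fold change 0.13, adjusted p = 0.103, edgeR), and RHEB, the activator of mTORC1 (0.13, adjusted p = 0.11).

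Known targets of HIF were called lower in LX-2FAP in 14 cases and higher in 0. Of 37 target genes listed, 36 passed the filter and CA9 did not, so that 38.9% of those tested were called lower, against 2.73% of all tested genes. The log2 fold change was below 0 for 35 of the 36, against 53% of all tested genes. The median was -0.25. The list had been chosen with the direction of some of its genes already known, so its count is not independent evidence of that direction.

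Values are given for the 8 called targets with the smallest p-values. ALDOC, a glycolytic aldolase, stood at 61.0, 53.7 and 73.6 CPM in LX-2Vector and 48.4, 26.9 and 31.0 CPM in LX-2FAP, a log2 fold change of -0.81 (SE 0.15, adjusted p = 0.01, edgeR). Of the FAP libraries, replicate 1 came closest to the controls. CA12, a carbonic anhydrase of the cell surface, was low, at 2.54, 2.74 and 3.34 CPM against 1.92, 1.06 and 1.10 CPM, and changed by -1.04 on the log2 scale (SE 0.22, adjusted p = 0.0177, edgeR). SLC2A1, the glucose transporter GLUT1, stood at 87.0, 77.0 and 93.2 CPM against 75.01, 63.3 and 66.6 CPM, a log2 fold change of -0.33 (SE 0.07, adjusted p = 0.017, edgeR). The other named targets were DDIT4, an inhibitor of mTORC1 (-0.63), ENO2, a neuronal-type enolase (-0.49), BHLHE40, a transcriptional repressor (-0.51), STC2, a secreted glycoprotein hormone (-0.26), and PFKFB3, which makes the activator of phosphofructokinase (-0.24), with adjusted p-values of 0.012 to 0.0233 (edgeR). DESeq2 did not call ALDOC (adjusted p = 0.0605), DDIT4 (0.0503), ENO2 (0.0578) or BHLHE40 (0.0834) and gave CA12 no adjusted p. PFKFB3 was not called with the GC trend removed (log2 fold change -0.15, adjusted p = 0.129, edgeR). DDIT4 shares 41.2% of its exon bases with an antisense gene, and the use of strand in counting is not given in the sources used here.

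The libraries that stood out for the targets were not those that stood out for HIF1A. The median of the centred log2 CPM of the targets was 0.04, 0.07 and 0.27 in the control replicates 1, 2 and 3, and 0.02, -0.22 and -0.16 in the FAP replicates. LX-2FAP replicate 1, which had the highest HIF1A level of all libraries, had the highest target median of the LX-2FAP libraries, close to that of LX-2Vector replicate 1. The number of targets called changed with the library left out, and so did the number over all tested genes. Without the control replicate 3, 5 targets were called, 4 lower and 1 higher in LX-2FAP, with 395 of 18652 genes called in all. Without the FAP replicates 1, 2 or 3, the targets called were 21, 1 and 0 by edgeR (22 at an unadjusted p under 0.05 in the last case). The calls over all genes were then 1949 of 18794, 129 of 18765 and 26 of 18822. The median log2 fold change of the targets was -0.31, -0.20 and -0.22 in the same fits, and -0.17 without the control replicate 3. With the GC trend removed, 12 of the 36 were called lower, all 12 of them among the 14, against 1.14% of all genes. In that fit 1 target was called higher, and over all genes 599 were called higher and 204 lower.

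**Figure D5:**
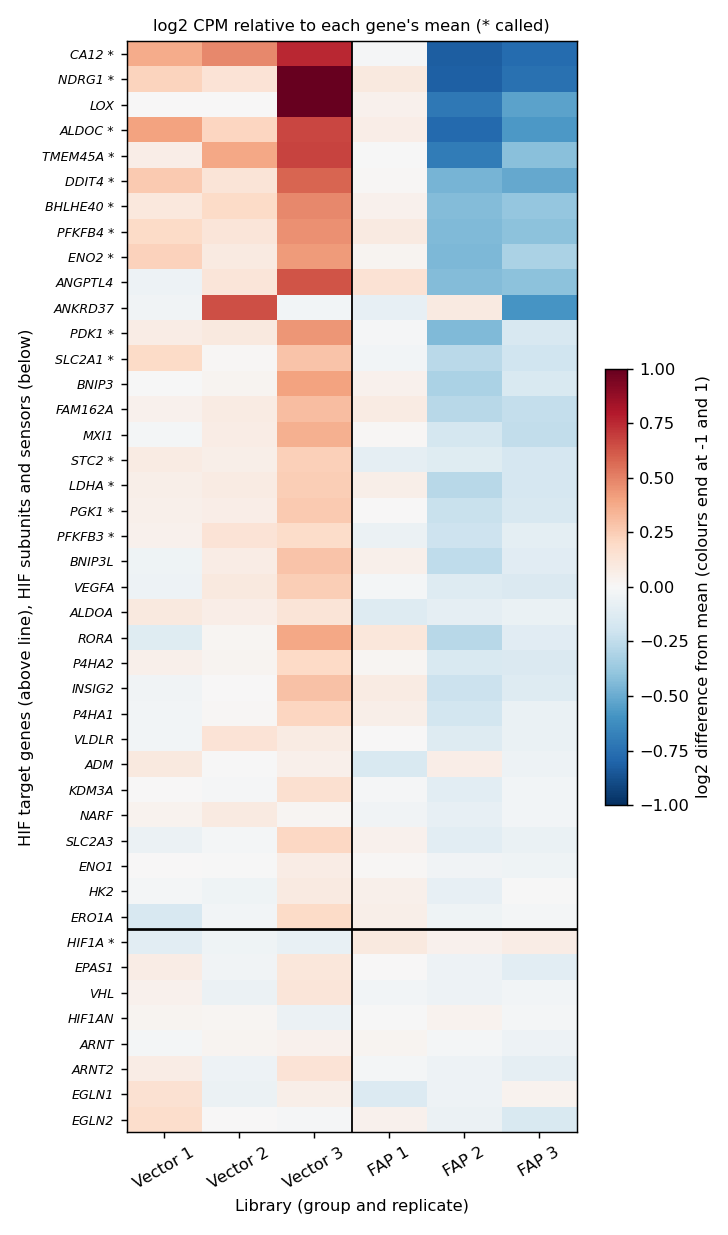
Log2 CPM relative to the mean of each gene over the 6 libraries, for the 35 HIF target genes with a log2 fold change below 0 (above the line, ordered by fold change) and the 8 tested HIF subunits and sensors (below), with an asterisk at genes called at an adjusted p under 0.05. Most target rows are red in LX-2Vector replicate 3 and blue in LX-2FAP replicates 2 and 3, while the 8 lower rows stay pale, with a range of log2 fold changes from -0.12 to 0.14.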

How the data were processed

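RNA of 3 LX-2Vector and 3 LX-2FAP libraries was analysed, grouped by sample title. The authors deposited raw read counts per gene and FPKM values computed from gene length and count; the submitters' notes name HISAT2 2.0.5, featureCounts 1.5.0-p3, DESeq2 1.16.1, edgeR and a genome build (hg18), whereas 58337 of 60605 Ensembl identifiers were in GENCODE release 29 (GRCh38), the source of the coordinates of genes. Depletion of rRNA (labels) and poly(A) isolation (the study's methods) are both described, so the RNA classes kept are not settled. Where libraries did not come from separate cultures, p-values measure technical spread only.

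Counts were tested with edgeR 4.0.16 (TMM, quasi-likelihood, default filter: minimum count 10, minimum total 15), which kept 18275 genes; p-values were 2-sided and adjusted by Benjamini-Hochberg over all of them, and calls needed an adjusted p below 0.05. Shares were compared with exact permutation tests. The test was checked on simulated counts. The alternatives were DESeq2 1.42.0, limma 3.58.1 on log2(FPKM + 1) and log2(FPKM + 0.1), other scalings and filters, a replicate block, each library left out, and, chosen after seeing the data, removal of a loess trend over GC content (span 0.5, known for 98.1% of genes). The members, taken by symbol, and the lists were chosen with earlier results of these data known. Named were all 10 members, FAP, up to 8 called genes of each list by smallest p (with none called, the 2 of smallest p), and the 3 genes most like each called member. CA9, ELOC, RAB4B-EGLN2 and single markers were named after their values were seen. The values of 1 target gene are not reported here.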

Additional observations from a re-analysis of the deposited data

How the results depend on the processing

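The log2 fold change of HIF1A stayed above 0 under every alternative run. It was not called with library size alone (0.12), with limma on log2(FPKM + 1) (0.12) or log2(FPKM + 0.1) (0.12), or with the GC trend removed (0.089), and leaving out 1 library gave 0.13 to 0.17, with the call lost in 4 of 6 cases. DESeq2 called it (log2 fold change 0.15, adjusted p = 0.00627). The number of members called was 1 or, in the settings that lost HIF1A and at an adjusted p under 0.01, 0, and 0 to 1 with a library left out. HIF1AN turned below 0 with library size alone (-0.022), upper-quartile scaling (-0.0062), limma on log2(FPKM + 1) (-0.019) and on log2(FPKM + 0.1) (-0.021), without the control replicate 3 (-0.015) and without the FAP replicate 2 (-0.0096), within -0.015 to 0.026 over the libraries left out. ARNT turned above 0 with the GC trend removed (0.00041). The cause was not tested. The other 5 tested members kept their sign and stayed uncalled.

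Of the lists, VHL partners had 0 called with library size alone, upper-quartile scaling, both limma fits and an adjusted p under 0.01, and 0 to 2 with a library left out. Stability factors had 2 called with DESeq2 size factors, library size alone, DESeq2 and the GC trend removed, 4 with no filter, 0 with both limma fits, and 0 to 4 with a library left out. The bHLH-PAS factors had 2 called with no filter, 0 with both limma fits and at an adjusted p under 0.01, and 0 to 2 with a library left out. The dioxygenases had 0 called with DESeq2, both limma fits, the GC trend removed and an adjusted p under 0.01, and 0 to 2 with a library left out. HIF targets had 24 called with no filter, 6 with DESeq2, 0 with both limma fits (23 at an unadjusted p under 0.05 in each), 0 at an adjusted p under 0.01, and 0 to 21 with a library left out. Of the 24 called with no filter, 23 were lower in LX-2FAP and 1 was higher. DESeq2 gave 33 targets an adjusted p, and the 6 it called were all lower, with 5 of them among the 14 of the main fit. Inputs to HIF1A had 1 called with no filter, 1 with the GC trend removed and 0 to 2 with a library left out. Coactivators had 0 called throughout. As a background, the main fit called 967 of 18275 genes, DESeq2 1031 of 11543 and the fit with no filter 1606 of 41175. Each limma fit called only 2 of 18275 genes, so the absence of a call there says little about HIF1A or any list. The fits with a library left out called 26 to 1949 genes. The HIF1A share kept its direction, at 1.41 to 2.02 points with a library left out.

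Libraries with the same replicate number did not deviate together (correlations of -0.039, 0.044 and -0.01), so the numbers were not taken to pair them. With the replicate block, HIF1A had a log2 fold change of 0.14 and stayed called, HIF targets stayed at 14, and the stability factors had 2 called. Depth limits EGLN3 and HIF3A, which were tested only in the fit with no filter and were not called there.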

Other observations

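The HIF1A locus also carries antisense transcripts. HIF1A-AS3 was measured at 12.7, 11.3 and 17.5 CPM in the control libraries and at 11.1, 10.1 and 8.26 CPM in the FAP libraries. Its log2 fold change was -0.50 with SE 0.14 (adjusted p = 0.0504, edgeR). The groups did not overlap, but LX-2Vector replicate 2 and LX-2FAP replicate 1 lay close together. HIF1A-AS1, which overlaps 2.27% of the exon bases of HIF1A on the other strand, had 5 to 15 counts per library. EGLN3P1, a pseudogene of EGLN3, had 0 to 3 counts per library. These genes were chosen after their values were seen. Without the strand used in counting, reads of exons shared by HIF1A and HIF1A-AS1 cannot be told apart. In GENCODE release 29, AL137129.1 overlaps 2.87% of the exon bases of HIF1A on the same strand. HIF1A-AS3 was not among the genes found to overlap HIF1A exons there.

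Among the stellate cell markers, 13 rows were tested and 4 were called (30.8%), against 5.29% of all tested genes. The log2 fold change was below 0 in 7 of the 13 and above 0 in 6, from -0.69 to 0.28. COL3A1 (log2 fold change -0.69, adjusted p = 0.00765, edgeR), COL1A1 (-0.40, adjusted p = 0.0135) and PDGFRB (-0.38, adjusted p = 0.0269) were lower in LX-2FAP, and VIM (0.13, adjusted p = 0.0372) was higher. With the GC trend removed, PDGFRB was not called (adjusted p = 0.071, edgeR). Of the 6 fits that each left out a library, COL3A1 was called in 5, COL1A1 in 3, PDGFRB in 2 and VIM in 1.

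No other marker list had a called gene, except VWF, with 2.46 ± 0.603 CPM in the control line against 1.17 ± 0.438 CPM with FAP (mean ± SD, n = 3 each, edgeR adjusted p = 0.0268), which was called in 2 of the 6 fits with a library left out.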
